A study of Mus musculus with 10 samples.

Results

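The cytochrome P450 family 4 (Cyp4) fatty acid omega-hydroxylases of the mouse liver are described here across 4 hepatocyte genotypes. The 9 members, Cyp4a10, Cyp4a14, Cyp4a31, Cyp4a32, Cyp4a12a, Cyp4a12b, Cyp4f14, Cyp4f15 and Cyp4v3, were taken by their gene identifiers from the 21939 genes of the deposited table, which holds 20 Cyp4 genes in all. All 9 passed the filter on low counts, which kept 13641 genes. The members were read as 4 genes that are known targets of the nuclear receptor PPARα (Cyp4a10, Cyp4a14, Cyp4a31 and Cyp4a32) and 5 others.

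RNA came from freshly isolated, Percoll-purified hepatocytes of male C57BL/6J-background mice 12 days after injection of AAV8Cre. The labels give their age as 8 to 9 weeks without saying whether at injection or at isolation. AAV8Cre is a viral vector that expresses Cre recombinase from the hepatocyte-specific thyroxine-binding globulin promoter. The control mice (n = 3) were wild type and received the same vector. Nrf2 KO mice (n = 2) carried floxed Nrf2 alleles, p65 KO mice (n = 2) carried floxed p65 alleles, and DKO mice (n = 3) carried both. Nrf2 is the antioxidant response transcription factor and p65 (gene symbol Rela) is a subunit of NF-κB. Every mouse gave 1 library of poly-A RNA, so the p-values measure the spread between mice. Because the controls carried no floxed allele, effects of the deletions and of the floxed lines cannot be told apart, and the other cell types of the liver kept both genes in every group.

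Omega-hydroxylases add a hydroxyl group to the last carbon of a fatty acid, the first step of a pathway that turns it into a dicarboxylic acid, which peroxisomes then shorten. Cyp4a10 and Cyp4a14 are textbook PPARα targets that rise in fasting and with fibrate drugs, and both follow the daily clock. Cyp4a12a and Cyp4a12b are male-predominant enzymes under androgen and growth hormone control that hydroxylate arachidonic acid. The Cyp4f enzymes inactivate leukotriene B4 and hydroxylate long-chain fatty acids, and Cyp4v3 is the mouse counterpart of human CYP4V2, which is mutated in Bietti crystalline dystrophy of the retina.

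All 6 Cyp4a members lie in 1 cluster on chromosome 4 of GRCm39. Cyp4a12a (chr4:115156243-115190012, plus strand) and Cyp4a12b (chr4:115268820-115296235, plus strand) are followed by Cyp4a14 (chr4:115343397-115353344, minus strand), Cyp4a10 (chr4:115375461-115390849, plus strand), Cyp4a31 (chr4:115420818-115436212, plus strand) and Cyp4a32 (chr4:115458134-115479704, plus strand). Cyp4f15 (chr17:32904421-32922640, plus strand) and Cyp4f14 (chr17:33120541-33136561, minus strand) share a cluster on chromosome 17, and Cyp4v3 (chr8:45757972-45786330, minus strand) stands alone on chromosome 8.

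Several members are near-identical copies, which limits how well reads can be assigned to them. The coding sequences of Cyp4a12a and Cyp4a12b differed at 23 of 1524 bases (98.5% identity). Cyp4a10 was 96.6% identical to Cyp4a31 and 97.9% identical to Cyp4a32 over the aligned bases, whereas it was 76.1% identical to Cyp4a14. Of all 100-base windows of the canonical transcript, the length of the sequenced reads, 35.9% in Cyp4a12a, 36.2% in Cyp4a12b, 21.0% in Cyp4a32, 15.6% in Cyp4a10 and 8.12% in Cyp4a31 occurred unchanged in another Cyp4 transcript. No such window was found for Cyp4a14, Cyp4f14, Cyp4f15 or Cyp4v3. The stretch in which the Cyp4a12 genes differ most, coding bases 664 to 763, is shown because their separation below rests on such bases. Capitals mark the 8 bases that differ.
Cyp4a12a: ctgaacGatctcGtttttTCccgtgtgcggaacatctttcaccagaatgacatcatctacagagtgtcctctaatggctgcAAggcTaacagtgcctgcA
Cyp4a12b: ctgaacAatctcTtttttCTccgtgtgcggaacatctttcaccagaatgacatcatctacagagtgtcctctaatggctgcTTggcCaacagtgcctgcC

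The first 100 coding bases of the PPARα-driven genes are shown because they make the contrast between the Cyp4a10-like copies and Cyp4a14 visible. Capitals mark bases that differ from Cyp4a10, which were 5 in Cyp4a31, 1 in Cyp4a32 and 37 in Cyp4a14. All sequences are of the reference (GRCm39, GENCODE M39), written 5′ to 3′.
Cyp4a10: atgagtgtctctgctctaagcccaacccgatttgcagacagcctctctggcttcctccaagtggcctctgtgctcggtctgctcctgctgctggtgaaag
Cyp4a31: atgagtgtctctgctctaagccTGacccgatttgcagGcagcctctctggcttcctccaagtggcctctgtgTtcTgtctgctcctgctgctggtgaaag
Cyp4a32: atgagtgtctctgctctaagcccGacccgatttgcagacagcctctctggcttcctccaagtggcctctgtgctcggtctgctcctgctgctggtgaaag
Cyp4a14: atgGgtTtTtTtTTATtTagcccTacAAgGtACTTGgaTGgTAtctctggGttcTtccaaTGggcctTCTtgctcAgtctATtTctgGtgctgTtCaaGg

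The libraries held between 33707165 and 49897382 counts, of which the 9 members took between 0.0855% and 0.301%. Nfe2l2, the gene of Nrf2, was higher, not lower, in the libraries labelled Nrf2 KO (4739 and 5005 normalized counts, against 1990 to 2318 in control), and Rela had a log2 fold change of -0.07 in p65 KO (adjusted p = 0.765). The table gives 1 total per gene, so the deleted exons cannot be counted apart and these totals do not check the labels. Of 17 listed Nrf2 targets, 10 fell in Nrf2 KO (0.44% of all genes were called lower) and 12 in DKO (1.02%). Gstm1, Gsta2, Gclc and others of this list had been named by the study from these libraries, so their direction is not independent evidence. Saa3, an NF-κB target, fell in p65 KO (log2 fold change -2.99) and in DKO (-2.57). The NF-κB list as a whole did not fall. Of 14 listed NF-κB targets, 1 was called lower and 2 higher in p65 KO (1.54% and 5.05% of all genes). In DKO, 1 was called lower and 2 higher (1.02% and 1.36% of all genes). The median log2 fold changes of that list were 0.47 and 0.48. Nrf2 KO, p65 KO and DKO stand below for the libraries so labelled. Y-linked transcripts were present at like levels in all 10 libraries, with sums between 4167 and 4717 normalized counts.

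In control hepatocytes, the PPARα-driven genes were the larger part of Cyp4 expression. Levels were compared between genes as normalized counts per kb of canonical transcript. Cyp4a10 was highest at 14513 ± 4509 (SD, n = 3), followed by Cyp4a14 at 7377 ± 3992, Cyp4a12a at 6921 ± 390 and Cyp4v3 at 4091 ± 621. Next in that order were Cyp4a12b at 1674 ± 189, Cyp4f15 at 1404 ± 62.7 and Cyp4f14 at 1289 ± 56.7. Cyp4a32 at 592 ± 17.4 and Cyp4a31 at 413 ± 107 were lowest. The control libraries of Cyp4a14 overlapped with those of Cyp4a10 and of Cyp4a12a, and those of Cyp4f15 overlapped with those of Cyp4a12b and of Cyp4f14. The other neighbours in this order did not overlap.

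The make-up of Cyp4 expression was different in each knockout. The 4 PPARα-driven genes made up 52.4%, 54.6% and 68.9% of the summed per-kb level of the 9 members in the control libraries. Their share was 20.3% and 14.4% in Nrf2 KO, 14.8% and 11.8% in p65 KO, and 7.75%, 13.1% and 36.9% in DKO. No knockout library reached the lowest control library. Cyp4a12a was then the highest member in Nrf2 KO (7049 ± 142 per kb, n = 2), and Cyp4v3 was the highest in p65 KO (3423 ± 214, n = 2) and in DKO (4933 ± 1186, n = 3). In DKO replicate 3, Cyp4a10 was at 4694 per kb, above Cyp4v3 at 3780, unlike in the other DKO libraries. In p65 KO replicate 2, Cyp4a12a was at 4117 per kb, above Cyp4v3 at 3574.

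**Figure D1:**
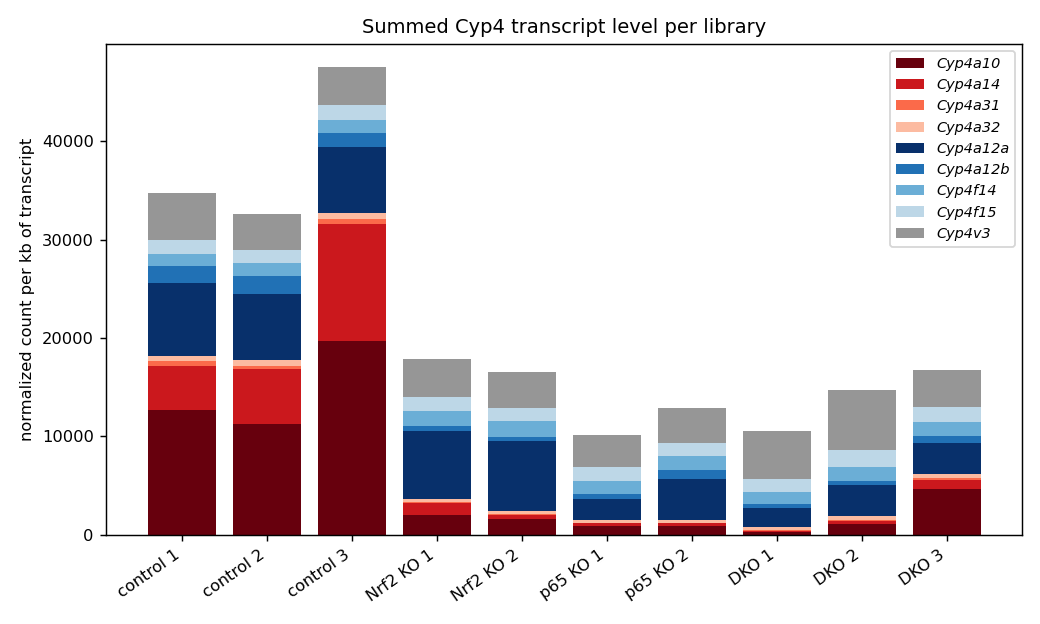
Stacked bars show the normalized count per kb of canonical transcript of each of the 9 Cyp4 genes (y axis, linear, from 0) in each of the 10 libraries (x axis). The red parts, Cyp4a10, Cyp4a14, Cyp4a31 and Cyp4a32, sum to between 17784 and 32702 in control and to between 819 and 6187 in the knockouts, whereas the blue and grey parts sum to between 14785 and 16563 in control and to between 8641 and 14219 in the knockouts.

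Each knockout was compared with the same 3 control libraries, so the 3 comparisons are not independent of one another. Calls required an adjusted p of at most 0.05 together with a log2 fold change of 1 or more, up or down. Of the 9 members, 3 were called lower in Nrf2 KO, where 0.44% of all genes tested were called lower. In p65 KO, 6 of 9 were called lower (1.54% of all genes), and in DKO 5 of 9 (1.02% of all genes). None was called higher in any of the 3 comparisons, against 0.11%, 5.05% and 1.36% of all genes. The libraries lay entirely below control for 5 members in Nrf2 KO (13.6% of all genes), 7 in p65 KO (23.8%) and 6 in DKO (13.2%). The median log2 fold changes of the PPARα-driven genes were -2.62, -3.66 and -2.21 in the order Nrf2 KO, p65 KO, DKO. Among the 5 other members it was -0.10, -0.26 and 0.09, and over all genes tested it was 0.0019, 0.00090 and 0.025. Cyp4a10, Cyp4a14, Cyp4a31 and Cyp4a32 had been named by the study from these libraries, so their direction is not independent evidence. As the samples are bulk, fewer hepatocytes that express a gene and less of its RNA per hepatocyte cannot be told apart. The 6 hepatocyte markers summed to 3551580 to 4901230 normalized counts in control and to 3848210 to 4092120 in p65 KO, where their median log2 fold change was -0.14. Normalized counts are relative within a library, so these marker values do not separate the possibilities.

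**Figure D2:**
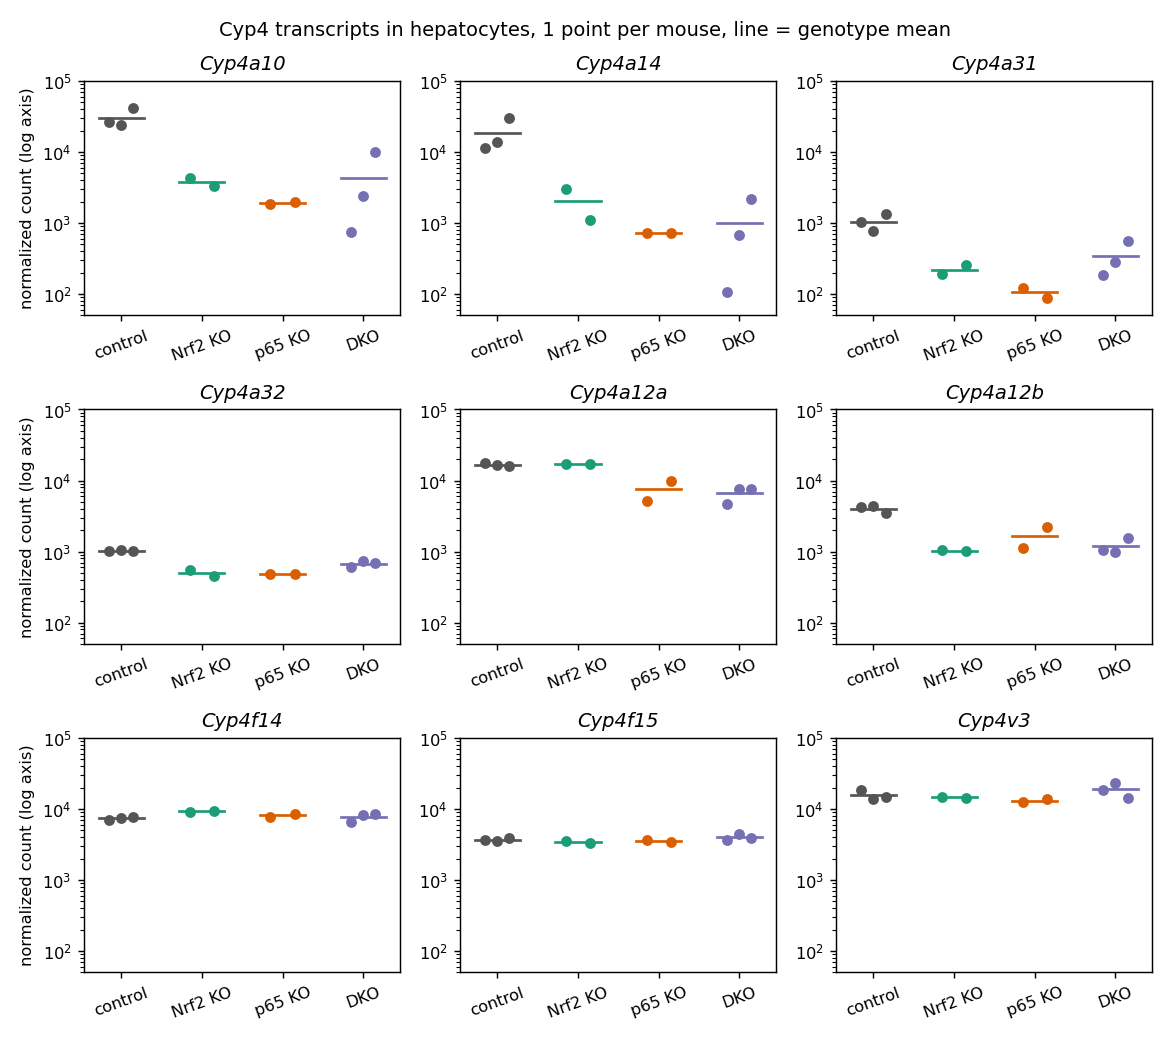
Each panel shows the normalized count of 1 Cyp4 gene (y axis, log scale, the same range in every panel) in the 4 genotypes (x axis), with 1 point per mouse and a line at the genotype mean. Cyp4a10, Cyp4a14, Cyp4a31 and Cyp4a32 lie below control in all 7 knockout libraries, Cyp4a12a lies within 16154 to 17849 in control and Nrf2 KO alike, and Cyp4f14, Cyp4f15 and Cyp4v3 stay within a narrow band.

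Cyp4a10 is the classical fibrate-inducible lauric acid omega-hydroxylase. Its normalized counts were 26673, 23698 and 41453 in control, 4296 and 3361 in Nrf2 KO, 1852 and 1967 in p65 KO, and 737, 2375 and 9899 in DKO. All 7 knockout libraries were below all 3 controls, and DKO replicate 3 stood well above the other DKO libraries. The mean was 16.0-fold lower in p65 KO (log2 fold change -4.0 ± 0.88 SE, adjusted p = 0.0155) and 7.06-fold lower in DKO (-2.82 ± 0.70, adjusted p = 0.0424). The 8.0-fold lower mean in Nrf2 KO did not pass the test (-3.0 ± 0.83, adjusted p = 0.211, 95% interval -4.83 to -1.17). The DKO call was lost without any 1 of 8 libraries (adjusted p between 0.0586 and 0.108), the exceptions being DKO replicates 1 and 3. Without DKO replicate 3 the log2 fold change was -4.29. The p65 KO call was lost without either p65 KO library (adjusted p = 0.124 and 0.0779), and Cyp4a10 was called in Nrf2 KO without DKO replicate 1 (adjusted p = 0.0376) or without DKO replicate 3 (0.0145).

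Cyp4a14, which hydroxylates fatty acids and is strongly induced by fasting, showed the largest fold changes of the members. It was at 11401, 14078 and 29874 normalized counts in control, 2992 and 1094 in Nrf2 KO, 729 and 729 in p65 KO, and 108, 678 and 2189 in DKO. Here too, no knockout library reached control. Cyp4a14 fell 25.3-fold in p65 KO (log2 fold change -4.66 ± 1.04 SE, adjusted p = 0.0166), where 26 of 13641 genes had a lower log2 fold change, and 18.6-fold in DKO (-4.22 ± 0.86, adjusted p = 0.0208). In Nrf2 KO the difference was -3.18 ± 0.96 (9.03-fold lower mean, adjusted p = 0.251, 95% interval -5.29 to -1.06). Of 10 other settings, 1 called Cyp4a14 there, which was DESeq2 (-3.18, adjusted p = 0.0486). The p65 KO call was lost without p65 KO replicate 1 (adjusted p = 0.129) or replicate 2 (0.0867), and the DKO call without DKO replicate 2 (0.0607).

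Cyp4a31 and Cyp4a32, the less abundant copies of Cyp4a10, changed in the same direction. Cyp4a31 was at 1044, 779 and 1322 normalized counts in control, 191 and 253 in Nrf2 KO, 123 and 87.9 in p65 KO, and 188, 282 and 563 in DKO. It was called lower in all 3 knockouts, with log2 fold changes of -2.24 ± 0.41 (adjusted p = 0.0404) in Nrf2 KO, -3.31 ± 0.44 (0.00198) in p65 KO and, for DKO, -1.61 ± 0.34 (0.0252). The p65 KO call held when any 1 library was left out, with adjusted p between 0.000451 and 0.023. The Nrf2 KO call was lost without any 1 of the control, Nrf2 KO or p65 KO libraries (adjusted p between 0.0595 and 0.306), and the DKO call without control replicates 1 or 3 or DKO replicates 1 or 2 (between 0.0557 and 0.0781).

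Cyp4a32 had the smallest fold changes of the PPARα-driven genes and the smallest spread between mice. Its normalized counts were 1012, 1063 and 1010 in control, 559 and 449 in Nrf2 KO, 489 and 475 in p65 KO, and 611, 732 and 689 in DKO. It was called in Nrf2 KO (2.04-fold lower, log2 fold change -1.03 ± 0.13, adjusted p = 0.00465) and in p65 KO (2.13-fold lower, -1.09 ± 0.13, adjusted p = 0.00132). In DKO, the adjusted p was 0.0155, but the log2 fold change of -0.60 ± 0.11 stayed under the fold threshold. The Nrf2 KO call was lost without Nrf2 KO replicate 2 (log2 fold change -0.88, adjusted p = 0.12), and with scaling to library totals the p65 KO value was -0.92 (adjusted p = 0.00561), under the fold threshold. When Cyp4a10, Cyp4a31 and Cyp4a32 were summed into 1 row before the fit, which removes the assignment of reads among them, the log2 fold change was -2.84 in Nrf2 KO (adjusted p = 0.111), -3.71 in p65 KO (0.00827) and -2.61 in DKO (0.0254).

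The male-predominant pair separated by genotype. Cyp4a12a was at 17849, 16282 and 16154 normalized counts in control, 16830 and 17316 in Nrf2 KO, 5182 and 9971 in p65 KO, and 4688, 7632 and 7713 in DKO. Nrf2 KO overlapped with control (log2 fold change 0.03 ± 0.26, adjusted p = 0.99, 95% interval -0.55 to 0.60). The fall in p65 KO was 2.21-fold (-1.15 ± 0.27, adjusted p = 0.02) and that in DKO 2.51-fold (-1.33 ± 0.24, adjusted p = 0.012). The p65 KO call was lost without control replicate 1 (adjusted p = 0.0598) or p65 KO replicate 1 (log2 fold change -0.75, adjusted p = 0.144), and the log2 fold change was -1.69 without p65 KO replicate 2. With scaling to library totals it was -0.97 (adjusted p = 0.0394), under the fold threshold.

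Cyp4a12b, in contrast, was called lower in all 3 knockouts. It was at 4224, 4313 and 3488 normalized counts in control, 1053 and 1015 in Nrf2 KO, 1136 and 2195 in p65 KO, and 1039, 972 and 1528 in DKO, and no knockout library reached control. Log2 fold changes were -1.95 ± 0.28 in Nrf2 KO (3.88-fold, adjusted p = 0.00949), -1.27 ± 0.27 in p65 KO (2.41-fold, 0.0131) and -1.76 ± 0.24 in DKO (3.4-fold, 0.00292). The DKO call held when any 1 library was left out (adjusted p between 0.0014 and 0.014). The Nrf2 KO call was lost without Nrf2 KO replicate 1 (adjusted p = 0.111) or replicate 2 (0.191), which leaves 1 library in that group, and the p65 KO call without p65 KO replicate 1 (log2 fold change -0.87, adjusted p = 0.0916).

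Cyp4a12b made up 19.1%, 20.9% and 17.8% of the counts of the pair in control, but 5.89% and 5.54% in Nrf2 KO. In p65 KO its share was 18.0% in both libraries, and in DKO it was 18.1%, 11.3% and 16.5%. The Nrf2 KO libraries lay below all others, and those of p65 KO within the control range. Nrf2 KO and control differed by -13.55 percentage points (two-sided exact permutation test, p = 0.2, n = 2 and 3), and 0.2 is the smallest p that this design allows. With both genes summed into 1 row, the log2 fold change was -0.20 in Nrf2 KO (adjusted p = 0.887), -1.17 in p65 KO (0.017) and -1.40 in DKO (0.00815). Cyp4a12b was 17.8% to 20.9% of the pair in control, so a fall of Cyp4a12b alone can move this sum only a little. The sum in Nrf2 KO therefore does not show whether Cyp4a12b fell or reads were split otherwise between the copies.

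The remaining members, Cyp4f14, Cyp4f15 and Cyp4v3, were not called in any comparison. Cyp4f14, the liver leukotriene B4 omega-hydroxylase, was at 7037, 7364 and 7684 normalized counts in control, 9070 and 9437 in Nrf2 KO, 7802 and 8529 in p65 KO, and 6507, 8358 and 8615 in DKO. Its highest libraries were those of Nrf2 KO, both above control (log2 fold change 0.33 ± 0.13, adjusted p = 0.445, 95% interval 0.04 to 0.62). In p65 KO the interval was -0.14 to 0.44 and in DKO -0.17 to 0.35.

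Cyp4f15 was at 3698, 3548 and 3879 normalized counts in control, 3595 and 3287 in Nrf2 KO, 3670 and 3451 in p65 KO, and 3613, 4405 and 3933 in DKO. The groups overlapped in every comparison with control, and the 95% intervals of the log2 fold change were -0.36 to 0.14 in Nrf2 KO, -0.31 to 0.19 in p65 KO and -0.12 to 0.32 in DKO. Cyp4v3 was at 18310, 13853 and 14686 in control, 14816 and 14267 in Nrf2 KO, 12487 and 13643 in p65 KO, and 18594, 23471 and 14427 in DKO. Its p65 KO libraries were both below control (log2 fold change -0.26 ± 0.19, adjusted p = 0.386). The intervals of Cyp4v3 were -0.52 to 0.32 in Nrf2 KO, -0.68 to 0.16 in p65 KO and -0.10 to 0.65 in DKO. For these 3 genes, a change of the size of the fold threshold lay outside every interval of the comparisons with control.

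**Figure D3:**
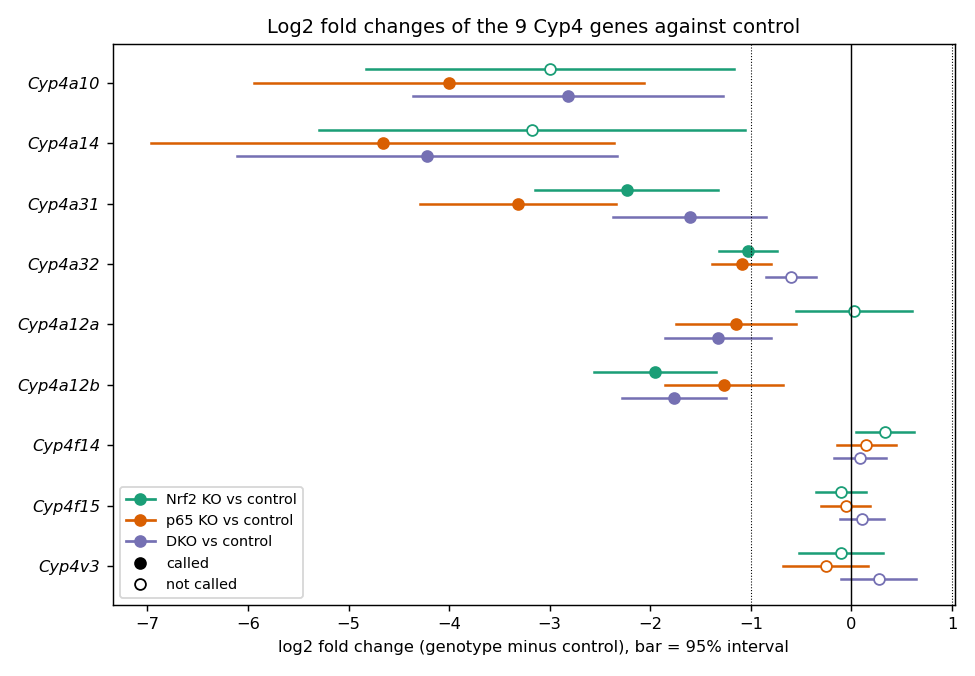
Points show the log2 fold change of each Cyp4 gene (rows) against control in Nrf2 KO, p65 KO and DKO (x axis, log2 scale), with bars for the 95% interval. Filled points were called, and dotted lines mark log2 fold changes of 1 and -1. Cyp4a10, Cyp4a14 and Cyp4a31 reach the lowest values, with wide intervals, and the bottom 3 genes centre near 0.

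The DKO libraries were also compared with each single KO, which asks what the second deletion added. None of the 9 members was called between DKO and Nrf2 KO, where 0.433% of all genes were called. By edgeR 2 of 9 had an unadjusted p under 0.05, a share that was not worked out over all genes. DESeq2 called 1 of 9, and it called 296 genes over the table where edgeR called 59. Cyp4a12a came closest, with a mean 2.56-fold lower in DKO and no overlap of the libraries (log2 fold change -1.35 ± 0.26, adjusted p = 0.0508, called by DESeq2 with an adjusted p of 5.37e-05). Between DKO and p65 KO, 1 of 9 was called higher (0.814% of all genes). This was Cyp4a31, 3.27-fold higher in DKO (log2 fold change 1.71 ± 0.42, adjusted p = 0.05), and the call was lost without any 1 library other than DKO replicate 1 (adjusted p between 0.0506 and 0.217).

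For Cyp4a10 and Cyp4a14, whose DKO libraries spread widely, the comparisons with the single KO mice had broad intervals. The log2 difference of Cyp4a10 was 0.18 against Nrf2 KO (-1.44 to 1.80) and 1.18 against p65 KO (-0.50 to 2.87). That of Cyp4a14 was -1.04 against Nrf2 KO (-2.89 to 0.80) and 0.44 against p65 KO (-1.47 to 2.35). Without DKO replicate 3, Cyp4a10 turned to -1.29 and -0.29, and Cyp4a14 to -0.89 against p65 KO. Cyp4a32 was above both single KO groups in all 3 DKO libraries, with log2 differences of 0.43 ± 0.13 (adjusted p = 0.183) and 0.49 ± 0.13 (adjusted p = 0.0607).

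The interaction term compares the effect of p65 loss in Nrf2-deficient hepatocytes with its effect in Nrf2-proficient ones. A positive value means that the DKO level was above the sum of both single KO log2 fold changes. The term was positive for all 4 PPARα-driven genes, and 2 of 9 members were called (0.264% of all genes were called higher). Cyp4a31 had a sum of -5.55 against -1.61 in DKO (interaction 3.94 ± 0.59, adjusted p = 0.0221), and Cyp4a32 a sum of -2.12 against -0.60 (1.52 ± 0.18, adjusted p = 0.00825). Cyp4a10 (4.18 ± 1.12, adjusted p = 0.15) and Cyp4a14 (3.62 ± 1.28, adjusted p = 0.256) had interactions of like size that did not pass. The sum of Cyp4a10, Cyp4a31 and Cyp4a32 gave 3.95 (adjusted p = 0.0983).

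Among the other members, the interaction was 1.46 for Cyp4a12b (adjusted p = 0.13) and -0.21 for Cyp4a12a (adjusted p = 0.847), and it was -0.04 for the sum of that pair. Both called interactions depended on single libraries. That of Cyp4a31 was lost without control replicate 1, either Nrf2 KO library or either p65 KO library (adjusted p between 0.0552 and 0.116). That of Cyp4a32 was lost without Nrf2 KO replicate 2 or either p65 KO library (between 0.0505 and 0.0637).

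**Figure D4:**
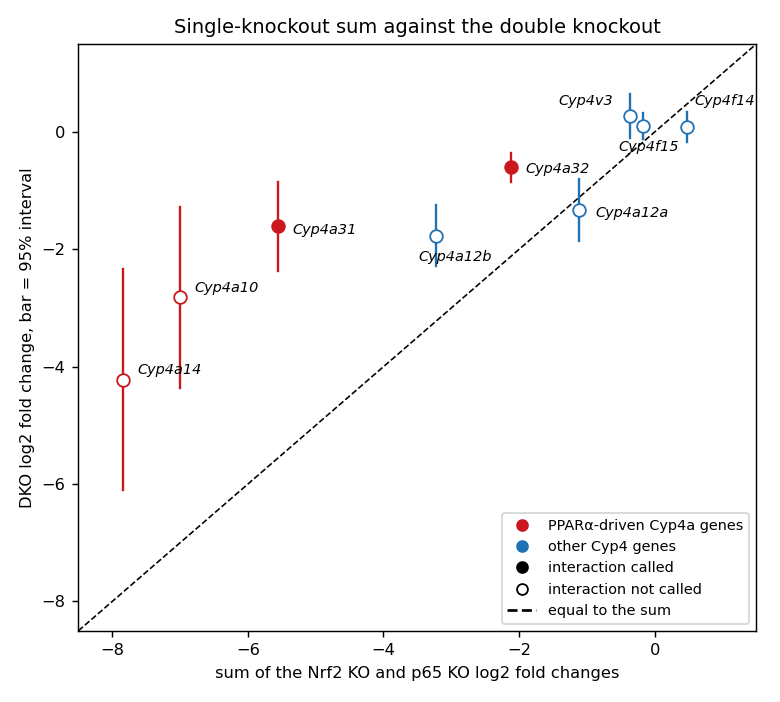
The sum of the Nrf2 KO and p65 KO log2 fold changes (x axis) is plotted against the DKO log2 fold change (y axis, bars for the 95% interval) for the 9 Cyp4 genes, with a dashed line where both are equal. The 4 PPARα-driven genes (red) lie above the line, filled for the called Cyp4a31 and Cyp4a32, and Cyp4a12a lies near it with -1.12 against -1.33.

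Of the 11 Cyp4 genes in the table that are no members, 5 were at 0 in every library and 6 were tested. Cyp4f13 was at 1734 to 2462 normalized counts over the 10 libraries and Cyp4f16 at 43.1 to 85.8, and neither was called. Cyp4f17 was at 653, 624 and 459 in control, 442 and 320 in Nrf2 KO, 297 and 293 in p65 KO, and 351, 339 and 365 in DKO. All of its knockout libraries were below control, with adjusted p = 0.00841 in p65 KO and 0.029 in DKO, but the log2 fold changes of -0.97 and -0.72 stayed under the threshold. Cyp4b1, which acts on short fatty acids and furans, rose in p65 KO (log2 fold change 2.21, adjusted p = 0.00624) and in DKO (1.42, adjusted p = 0.0488), from 30.9, 71.8 and 75.6 in control to 311 and 244 in p65 KO and 155, 199 and 126 in DKO. The DKO call was lost without any 1 control, p65 KO or DKO library (adjusted p between 0.0522 and 0.134) and the p65 KO call without p65 KO replicate 1 (0.0551). The end of Cyp4b1 (chr4:115476281-115504999, minus strand) overlaps that of Cyp4a32 on the other strand, and the reads were counted by strand.

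Other genes that PPARα is known to drive were also mostly below control. Of a list of 50 such genes without the Cyp4 members, 48 were tested, and 4 were called lower in Nrf2 KO, 9 in p65 KO, and, for DKO, 11, with none called higher. Log2 fold changes were negative for 47, 41 and 45 of the 48, and the medians were -0.61, -0.56 and -0.64. Over all genes tested, 0.44%, 1.54% and 1.02% were called lower, and 6720, 6790 and 6447 of 13641 were negative, in the same order. The study had named Acot1, Acot2, Retsat and Fgf21 from these libraries, so their direction is not independent evidence. Ehhadh, the peroxisomal bifunctional enzyme of beta-oxidation, fell in all 3 knockouts (-1.40 in Nrf2 KO, adjusted p = 0.0427; -1.88 in p65 KO, 0.00268; -1.73 in DKO, 0.00304). Retsat, the retinol saturase, also fell in all 3 (-1.11, -2.11 and -1.44), as did Vnn1, which encodes the pantetheinase vanin (-1.86, -2.11 and -2.56). Calls in Nrf2 KO depended on single libraries, as that of Vnn1 was lost without Nrf2 KO replicate 2 (adjusted p = 0.0655), that of Retsat without control replicates 1 or 3 or either Nrf2 KO library (0.0511 to 0.299), and that of Ehhadh without any 1 of the control, Nrf2 KO or p65 KO libraries (0.0698 to 0.498). The number called in Nrf2 KO was 1 without control replicate 1, control replicate 3 or Nrf2 KO replicate 1, 2 without control replicate 2, 0 without Nrf2 KO replicate 2, and 7 without DKO replicate 3.

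Other listed targets were called in p65 KO and DKO but not in Nrf2 KO, a difference that was not tested between the knockouts. Acaa1b, a peroxisomal thiolase, fell in p65 KO (-1.67, adjusted p = 0.00333) and in DKO (-1.31, 0.00842). Plin2, the lipid droplet coat protein, fell in p65 KO (-1.41, 0.000636) and in DKO (-1.42, 0.000257). The acyl-CoA thioesterase Acot1 was at 1941, 1215 and 1604 normalized counts in control, 514 and 273 in Nrf2 KO, 177 and 267 in p65 KO, and 53.6, 217 and 484 in DKO. Its log2 fold changes were -2.01 in Nrf2 KO (adjusted p = 0.274), -2.84 in p65 KO (0.0195) and -2.66 in DKO (0.0241), and those of its mitochondrial relative Acot2 were -1.24 (0.25), -1.56 (0.0229) and -1.53 (0.0268). The p65 KO calls of Acot1 and Acot2 were lost without control replicate 1 or either p65 KO library (adjusted p between 0.056 and 0.155), and their DKO calls without control replicate 1 or DKO replicate 2 (between 0.0666 and 0.0956), that of Acot2 also without control replicates 2 or 3 or DKO replicate 1 (0.0594 to 0.0641).

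The hepatokine Fgf21 did not follow the order of the Cyp4a genes. Fgf21 was at 394, 248 and 273 normalized counts in control, 117 and 88.1 in Nrf2 KO, 366 and 226 in p65 KO, and 22.1, 15.7 and 25.2 in DKO. It fell in Nrf2 KO (log2 fold change -1.58, adjusted p = 0.0411) and in DKO (-3.85, adjusted p = 0.000117), and overlapped with control in p65 KO (-0.04, adjusted p = 0.933). Its Nrf2 KO call was lost without any 1 control or Nrf2 KO library or DKO replicate 1 (0.0587 to 0.497).

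**Figure D5:**
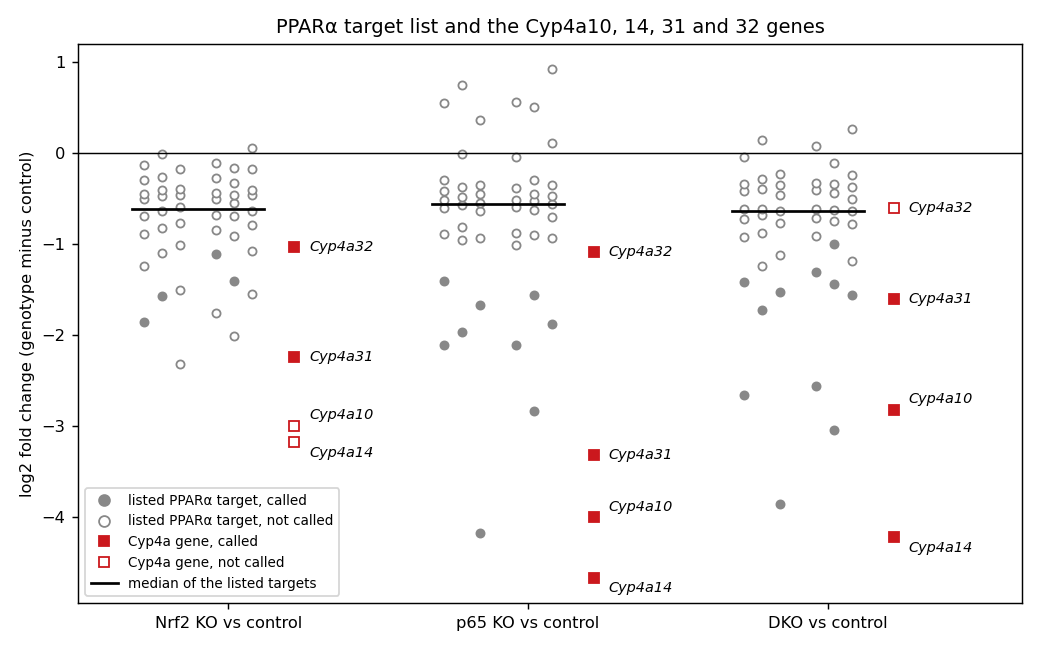
Log2 fold changes against control (y axis) of the 48 tested PPARα targets (grey circles, filled where called, with a line at the median) and of Cyp4a10, Cyp4a14, Cyp4a31 and Cyp4a32 (red squares, filled where called) are shown for the 3 knockouts (x axis). The list medians lie between -0.64 and -0.56, and Cyp4a14 is below every listed target in p65 KO and DKO.

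Enzymes that act with or after the omega-hydroxylases were listed as well. Of 22 such genes, 8 of which are also on the PPARα list, 21 were tested. In Nrf2 KO 1 was called lower (0.44% of all genes), in p65 KO 3 were called lower (1.54%) and 1 higher (5.05%), and in DKO 4 were called lower (1.02%). Besides Ehhadh and Acaa1b, these were Crot, which hands shortened acyl chains from peroxisomes to carnitine (-1.41 in p65 KO, adjusted p = 0.00209, and -1.33 in DKO, 0.00189), and in DKO Abcd2, a peroxisomal fatty acid transporter (-1.91, 0.0301; lost without control replicates 2 or 3 or DKO replicates 2 or 3, 0.0714 to 0.0848). Por, the reductase that passes electrons to all microsomal P450 enzymes, rose in p65 KO (log2 fold change 1.48, adjusted p = 0.00711). It was at 5487, 4520 and 6088 normalized counts in control, 4388 and 5117 in Nrf2 KO, 12138 and 17875 in p65 KO, and 6498, 8346 and 13582 in DKO. All DKO libraries of Por were above control, but the difference did not pass (0.82, adjusted p = 0.0832), and in Nrf2 KO it was -0.17 (adjusted p = 0.911).

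The mRNA of PPARα itself was not called lower against control in any knockout. Ppara was at 1822, 2271 and 3110 normalized counts in control, 2071 and 2493 in Nrf2 KO, 5161 and 3709 in p65 KO, and 1423, 2409 and 2109 in DKO. Its log2 fold change was -0.07 in Nrf2 KO (adjusted p = 0.973), 0.88 in p65 KO (0.0393, under the fold threshold) and -0.28 in DKO (0.504), and between DKO and p65 KO it was -1.16 (adjusted p = 0.0339). Of 17 receptors and cofactors of this pathway, none was called in Nrf2 KO. Shares over all genes were 0.44% lower and 0.11% higher there, 1.54% and 5.05% in p65 KO, and 1.02% and 1.36% in DKO. In p65 KO the coactivator Ppargc1b was called higher (1.11, adjusted p = 0.0482) and the corepressor Nr0b2 lower (-1.16, 0.0266), and in DKO Ppargc1b was called higher (1.21, 0.0462). The Ppargc1b calls were lost without any 1 control library, among others (adjusted p 0.0503 to 0.363), and that of Nr0b2 without control replicates 1 or 3 or either p65 KO library (0.0563 to 0.141).

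Since Cyp4a12a and Cyp4a12b are male-predominant, other sex-biased liver genes were examined. Of 15 male-biased genes, none was called in Nrf2 KO, 2 were called lower in p65 KO (1.54% of all genes) and 2 in DKO (1.02%). The fatty acid elongase Elovl3 fell in both (-3.48, adjusted p = 0.00293, and -1.67, 0.0386), the pheromone-binding protein gene Mup20 in p65 KO (-1.70, 0.0096), and the steroid dehydrogenase Hsd3b5 in DKO (-1.37, 0.00259). The medians of that list were -0.03, -0.25 and 0.08. Elovl3 had been named by the study from these libraries. Mup20 and the other Mup genes are near-identical copies, so its values are uncertain. The call of Mup20 was lost without p65 KO replicate 1 (adjusted p = 0.101), and that of Elovl3 in DKO without control replicates 1 or 2, either p65 KO library, or DKO replicates 2 or 3 (0.0583 to 0.132).

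Of 16 female-biased genes, 13 were tested, and 4 were called higher in p65 KO (5.05% of all genes) and 2 in DKO (1.36%). Cyp2a4, a steroid hydroxylase with a near-identical neighbour in Cyp2a5, was at 8.83, 4.92 and 47.6 normalized counts in control, 2.97 and 0.808 in Nrf2 KO, 18096 and 17985 in p65 KO, and 1648, 5039 and 11.4 in DKO. DKO replicate 3 was thus at the control level, unlike the other DKO libraries. Cyp17a1, a steroid lyase, rose in DKO (3.37, adjusted p = 0.00326), and Fmo2, a monooxygenase, in p65 KO (2.31, 0.0245). The call of Fmo2 was lost without control replicates 1 or 2 or p65 KO replicate 2 (0.0732 to 0.174), and that of Cyp2a4 in DKO without any 1 control library or DKO replicate 2 (0.0538 to 0.11). The transcription factor gene Cux2, at most 3.31 normalized counts in control, was at 32.5 and 15.1 in p65 KO, and Cyp2b13, at 0 in control and Nrf2 KO, was at 13.2 and 6.62 there. The calls of Cux2 and Cyp2b13 were lost without any 1 control or p65 KO library, that of Cux2 also without either Nrf2 KO library (0.0577 to 0.225).

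Markers of other liver cells moved with p65 loss. Among all genes tested, 5.05% were called higher and 1.54% lower in p65 KO, and 1.36% were called higher in DKO. The summed normalized count of 12 Kupffer cell markers was 379 to 957 in control, 264 to 815 in Nrf2 KO, 4470 to 6083 in p65 KO and 1661 to 2924 in DKO, and all 12 were called higher in p65 KO and 5 in DKO. That of 8 sinusoidal endothelial markers was 750 to 1526, 910 to 1775, 3792 to 5438 and 1904 to 2792, and that of 8 stellate cell markers 145 to 336, 136 to 215, 1599 to 1608 and 257 to 718. No Kupffer cell or endothelial marker was at 0 in any group, whereas Col1a1 was at 0 in control and Acta2 in Nrf2 KO and DKO. The sums of 6 hepatocyte markers were 3551580 to 4901230 in control and 3848210 to 5509220 in the knockouts, and 1 of these genes was called lower in p65 KO. Of the markers of neutrophils (4 of 8 tested), T and NK cells (5 of 8), B cells (3 of 5), cholangiocytes (3 of 6) and erythroid cells (5 of 5), 1 neutrophil marker was called higher in p65 KO and 1 T and NK cell marker in DKO. The erythroid sums were 3362 to 4675 in control and 4730 to 5605 in DKO. Most of these counts were of Alas2, whose DKO libraries (4463 to 4567) lay within the control range (3180 to 4623). Each globin marker was highest in DKO replicate 1. No marker of any of these lists was called in Nrf2 KO, where 0.44% of all genes were called lower and 0.11% higher. The part of these other cells in the Cyp4 differences was not tested in any knockout.

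Clock genes moved as well, and were called against control only with p65 loss. Bmal1 (as Arntl) and Per2 had been named by the study from these libraries. The shares of all genes called lower and higher were 0.44% and 0.11% in Nrf2 KO, 1.54% and 5.05% in p65 KO, and 1.02% and 1.36% in DKO. The 4 genes that peak with Bmal1 summed to 3474 to 4746 normalized counts in control, 2558 to 4264 in Nrf2 KO, 960 to 1174 in p65 KO and 1643 to 2564 in DKO. The 10 genes that peak later, with Per2, summed to 5084 to 11567, 8476 to 15329, 24386 to 28073 and 13776 to 20820. All 4 of the first list fell in p65 KO (Bmal1 -4.93, Clock -1.48, Nfil3 -1.88 and Npas2 -5.24, as log2 fold changes) and 2 in DKO (Bmal1 -2.16 and Npas2 -4.6). Of the second list, 9 rose in p65 KO, among them Dbp (4.35), Tef (2.50), Hlf (1.2) and Nr1d2 (1.04), and 5 in DKO, among them Tef (1.62), Per1 (2.00), Per2 (2.18) and Per3 (2.98). None of either list was called in Nrf2 KO, but the direction there was the same. All 4 of the first list had negative log2 fold changes in Nrf2 KO (median -0.45, against -3.41 in p65 KO and -1.57 in DKO). All 10 of the second list had positive ones (median 0.64, against 2.74 and 2.09). Dbp in Nrf2 KO was at 87.0 and 1719 normalized counts against 45.3, 54.1 and 426 in control. Of the named calls, those of Bmal1, Clock, Hlf and Per2, and of Tef in p65 KO, held when any 1 library was left out, and the others were lost without some library, such as control replicate 1 for Per1 in DKO (adjusted p = 0.122), Per3 in DKO (0.0552), Nfil3 (0.0531), Nr1d2 (0.0512), Dbp (0.0714), Tef in DKO (0.151) and Npas2 in DKO (0.0669), or p65 KO replicate 1 for Npas2 in p65 KO (0.106). The part of the clock genes in the Cyp4 differences was not tested.

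The genes whose pattern over the 10 libraries was most like that of the Cyp4 genes are given as a description, from the 10185 genes whose mean reached 50 normalized counts. The measure was Pearson's r of log2(normalized count + 1), and the libraries share genotype, so the points are not independent. For the sum of Cyp4a10, Cyp4a14, Cyp4a31 and Cyp4a32, the 5 most alike were Acot2 (0.971), Ehhadh (0.966), Odr4 (0.96), Acot1 (0.957) and Srr (0.953). Without the 2 libraries farthest from the median of that sum, r was between 0.933 and 0.965. For the sum of Cyp4a12a and Cyp4a12b they were Clcn4 (0.964), Dld (0.964), Phf10 (0.953), Ptp4a2 (0.951) and Acat1 (0.951), with r between 0.926 and 0.968 without 2 libraries. For the sum of Cyp4f14 and Cyp4f15 they were Pde8a (0.92), Slco1a1 (0.912), Zscan25 (0.898), Albfm1 (0.873) and Cyp46a1 (0.867), and r was as low as 0.671 without 2 libraries.

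Promoter windows of 250 bases before to 50 after the start (RefSeq, GRCm38) were at hand for 4 members, Cyp4a32, Cyp4f14, Cyp4f15 and Cyp4v3, with 7 windows. The consensus of PPARα with its partner RXR, a direct repeat of AGGTCA with 1 base between, was searched on both strands. It was in none of the 7 windows and in 13 of 32851 windows of all genes (0.0396%). A looser form, with any base at the fourth place of each repeat, includes the first and was in none of the 7 and in 0.381% of all windows. Both forms are so rare over all windows that their absence from 7 does not set the members apart. No window was at hand for Cyp4a10, Cyp4a14 or Cyp4a31.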

How the data were processed

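RNA of hepatocytes from 10 mice was sequenced as single-end, stranded poly-A reads of 100 bases. Per the labels, the authors ran Salmon 1.10.3 on GRCm39 with GENCODE M33, and the deposited values are whole-number estimated counts by gene. Although the table's name says normalized, totals differ between libraries (33707165 to 49897382), and the values were treated as estimated counts. All 10 columns belonged to a sample. The test was edgeR 4.0.16 in R 4.3.3 (quasi-likelihood, TMM scaling, a sum of at least 10 counts), in 1 fit of the 4 genotypes with Benjamini-Hochberg adjustment over 13641 genes. Normalized counts are the counts after division by a TMM-based scale of the library (0.874 to 1.237). Alternatives were DESeq2 1.42.0, limma 3.58.1 on log2 normalized counts with a pseudocount of 1 or 10, DESeq2 size factors, upper-quartile scaling, scaling to totals, no filter, a mean of 10, near-identical members summed, the replicate number as a block, 2 genotypes only, and leaving out each library. Sequences and positions are from GENCODE M39. Named genes were the members, other Cyp4 genes whose mean reached 50 normalized counts, up to 4 called genes of highest mean per list and comparison, a few further genes in any case, of which 1 is not reported here, and the 5 most alike per pattern. The members and lists were chosen with earlier results of these data known.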

Additional observations from a re-analysis of the deposited data

Results flagged for a closer look

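Among the members, the effect of p65 loss differed between Nrf2-proficient and Nrf2-deficient hepatocytes, by the interaction term, for Cyp4a31 (3.94 on the log2 scale, adjusted p = 0.0221) and Cyp4a32 (1.52, adjusted p = 0.00825). Among the other genes named, it differed for Retsat (1.77, adjusted p = 0.0159) and Mup20 (2.55, adjusted p = 0.0452). All 4 were lower in p65 KO than in control, and in DKO they were above the sum of both single KO log2 fold changes. Over all genes tested, 0.264% were called higher for this term. Both member calls were lost without some single libraries, as given above. With limma at a pseudocount of 1 they were also lost (adjusted p = 0.108 for Cyp4a31 and 0.0528 for Cyp4a32). The sum of Cyp4a10, Cyp4a31 and Cyp4a32 did not pass (3.95, adjusted p = 0.0983). Mup20 has near-identical copies, so its value is uncertain. No group had the 4 or more libraries that a test for an outlying library needs.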

How the results depend on the processing

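With 10 libraries and groups of 2 or 3, the spread between mice limits the calls more than counting depth does for the members, whose lowest value was 87.9 normalized counts. Over the other settings, the number of members called in Nrf2 KO was 5 with DESeq2 and 1 with limma at a pseudocount of 1 (3 by edgeR). In p65 KO it was 4 with scaling to totals, where Cyp4a32 (-0.92) and Cyp4a12a (-0.97) fell under the fold threshold, and 6 with every other setting that kept all libraries of the genotypes compared. In DKO it was 2 with that limma setting and 3 with only the 2 genotypes (5 by edgeR). Between DKO and Nrf2 KO it was 1 with scaling to totals, no filter or DESeq2. Between DKO and p65 KO it was 0 with DESeq2 size factors, a filter on a mean of 10, both limma settings, the replicate block or only the 2 genotypes. For the interaction it was 4 with DESeq2 and 0 with limma at a pseudocount of 1. PPARα targets called in Nrf2 KO numbered 8 with DESeq2 or only the 2 genotypes, 1 and 2 with limma at a pseudocount of 1 and 10, and 2 with the replicate block. Over the table, DESeq2 called 135 genes in Nrf2 KO, 534 in DKO, 296 between DKO and Nrf2 KO, 453 between DKO and p65 KO and 249 for the interaction. Limma at a pseudocount of 1 called 33 in Nrf2 KO, 134 between DKO and p65 KO and 11 for the interaction. Only the 2 genotypes gave 215 in DKO, 18 between DKO and Nrf2 KO and 105 between DKO and p65 KO. No filter gave 112 between DKO and Nrf2 KO and 137 for the interaction, scaling to totals 504 between DKO and p65 KO and 118 for the interaction, and the replicate block 37 between DKO and Nrf2 KO.

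Leaving out 1 library at a time, members called ranged from 0 to 4 in Nrf2 KO (0 without Nrf2 KO replicate 2), 2 to 6 in p65 KO (2 without p65 KO replicate 1), 2 to 5 in DKO (2 without DKO replicate 2), 0 to 1 between DKO and either single KO, and 0 to 3 for the interaction (0 without Nrf2 KO replicate 2 or either p65 KO library). Leaving out 1 of 2 libraries leaves a lone sample assumed to vary like the other groups. PPARα targets called ranged from 0 to 7, 7 to 10 and 8 to 12, and genes over the table from 18 to 84 in Nrf2 KO, 325 to 954 in p65 KO, 147 to 316 in DKO, 18 to 81 between DKO and Nrf2 KO, 70 to 294 between DKO and p65 KO and 8 to 119 for the interaction.

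Among the values given, signs turned only for differences that were not called. Cyp4a10 between DKO and Nrf2 KO was -0.55 with limma at both pseudocounts and -0.99 with the replicate block, and from -1.29 to 0.68 leaving out 1 library. Cyp4a14 between DKO and p65 KO was -0.42 and -0.39 with limma, -0.71 with the replicate block, and from -0.89 to 0.98. Cyp4a10 between DKO and p65 KO went from -0.29 to 1.69. With near-identical members summed, the row of Cyp4a12a and Cyp4a12b together was -0.20 in Nrf2 KO, -1.20 between DKO and Nrf2 KO and -0.036 for the interaction. Cyp4a12a alone was 0.03 in Nrf2 KO, and Cyp4a12b alone was 0.19 between DKO and Nrf2 KO and 1.46 for the interaction. Most counts of the summed row are of Cyp4a12a, so it does not give the sign of Cyp4a12b. Leaving out 1 library, Cyp4a12a went from -0.0043 to 0.074 in Nrf2 KO, -0.58 to 0.37 between DKO and p65 KO and -0.61 to 0.34 for the interaction, and Cyp4a12b from -0.033 to 0.31 between DKO and Nrf2 KO and -0.90 to 0.054 between DKO and p65 KO. Cyp4f14 went from -0.13 to 0.061 between DKO and p65 KO, and Cyp4v3 from -0.18 to 0.027 in Nrf2 KO. With scaling to totals, Cyp4f14 in DKO was -0.0020, Cyp4f15 was 0.12 in p65 KO, -0.10 between DKO and p65 KO and -0.0035 for the interaction, and Fgf21 in p65 KO was 0.14 (-0.43 to 0.26 leaving out 1 library). With the replicate block, Ppara in Nrf2 KO was 0.082 (-0.24 to 0.15 leaving out 1 library) and Por 0.0065. The replicate numbers do not pair the samples, since of 13 pairs of same-numbered libraries 1 had a correlation over 0.1 (-0.232 to 0.113). The cause of these changes was not tested.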
